A study of Mus musculus with 9 samples.

Results

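Genes of the splicing machinery and of the heterogeneous nuclear ribonucleoproteins (hnRNPs) were followed in mouse ventricles that overexpressed the receptor for insulin-like growth factor 1 (IGF1R), with or without a mutant form of the lipid kinase PI3K. The genes were chosen by name alone. They are the probe sets of the array whose single gene symbol starts with Srsf, Hnrnp, Snrp, Sf3, U2af, Lsm, Prpf or Rbm, which gave 99 of 12422 probe sets and 76 of 8251 genes. Of these, 88 probe sets of 73 genes were bright enough to be tested. The other 11 had intensities of 1.9 to 125.9, and 3 genes (Prpf39, Rbm6 and Rbm22) were read by such dim probe sets alone.

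RNA from both ventricles of 9 female mice aged 3 months was hybridised, with 1 array per mouse. All 9 mice carried the IGF1R transgene. It was the only transgene in the 3 IGF1R mice, it was crossed with constitutively active PI3K (p110) in the 3 IGF1R-caPI3K mice, and it was crossed with dominant negative PI3K (p110) in the 3 IGF1R-dnPI3K mice. The sources used here do not give the promoter of any of the 3 transgenes. Mice without a transgene or with a PI3K transgene alone were not analysed here, so the IGF1R mice are the reference group and not a normal heart.

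Splicing removes introns from the primary transcript. The U1 and U2 small nuclear ribonucleoproteins (snRNPs) mark the 5' splice site and the branch point, U2AF reads the 3' splice site, and the U4/U6.U5 tri-snRNP joins them to form the active spliceosome. SR proteins (Srsf genes) bind exons and mostly promote their inclusion, while hnRNPs often oppose them, and the balance of both sets which exons are kept. In the heart, SR proteins and hnRNPs take part in the postnatal switch of isoforms of contractile and calcium handling genes. The arrays measured the amount of RNA per gene and not which isoform was made.

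Some control measures moved with the groups. CreX, a spiked control of the hybridisation, had a 3'/5' ratio between 1.05 and 1.26 in IGF1R mice, between 1.74 and 1.89 in IGF1R-caPI3K mice and between 1.79 and 1.83 in IGF1R-dnPI3K mice. The same ratio for Gapdh, from the RNA of the sample, lay between 0.747 and 0.818 in IGF1R mice and between 0.843 and 0.943 in the other 6. The ratio for Pcx was 1.4 to 1.71, 1.57 to 1.87 and 1.79 to 3.25 in IGF1R, IGF1R-caPI3K and IGF1R-dnPI3K mice, and that for Actb was 1.04 to 1.24, 1.01 to 1.04 and 1.09 to 1.15. Group and the CreX and Gapdh ratios cannot be told apart in the comparisons with IGF1R mice. The array of IGF1R-dnPI3K replicate 3 stood apart, since it correlated with the others at a mean of 0.927, while the remaining 8 had means between 0.947 and 0.956 (over probe sets). It gave the lowest of the 9 values in 34 of 88 members (38.6%), against 30.1% of all 7898 probe sets tested. The median SD of log2 intensity between mice, over the members, was 0.155 in the IGF1R group, 0.128 in the IGF1R-caPI3K group and 0.26 in the IGF1R-dnPI3K group. Over all probe sets tested it was 0.164, 0.156 and 0.261 in the same order. In whole ventricle, fewer cells of a type and less RNA per cell cannot be told apart.

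With dominant negative PI3K, 4 hnRNP probe sets were lower and none was higher, 2 Srsf probe sets were lower and 1 was higher, and among the proteins of the snRNPs and the LSm family the calls went both ways. In total 11 of 88 members passed between IGF1R-dnPI3K and IGF1R mice in limma, at a p adjusted over all probe sets tested of under 0.05. These were 4 higher and 7 lower, or 12.5% of the members. Over all probe sets tested 13.5% passed, 5.7% higher and 7.8% lower, so the share of members that passed was close to that of the array as a whole. The groups did not overlap for 12 members that were higher and 28 that were lower (45.5% of members), against 13.6%, 20.8% and 34.4% in both directions together of all probe sets. At an unadjusted p under 0.05 there were 32 members (36.4%), against 32.2% of all probe sets. The log2 difference, IGF1R-dnPI3K minus IGF1R, had a median of -0.16 over the members and -0.09 over all probe sets tested. Scaling the arrays to a common median moved these medians to 0.01 and 0.08 (0.075), so differences are best read against the array as a whole. Without IGF1R-dnPI3K replicate 3 the medians were close to each other, at -0.07 over the members and -0.05 over all probe sets tested.

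Promoters of 4 members are shown because these genes carry calls described next, Lsm14b a rise and Hnrnpc, Hnrnph1 and Srsf1 falls. Each is the 250 bases before the first listed RefSeq start on GRCm38.p6, read 5' to 3' on the strand of the gene. They lie at chr2:180024737-180024986 on the plus strand for Lsm14b, chr14:52104022-52104271 on the minus strand for Hnrnpc, chr11:50376740-50376989 on the plus strand for Hnrnph1 and chr11:88047123-88047372 on the plus strand for Srsf1. Capitals mark matches to 5 motifs searched on both strands, which here are all CCAAT boxes, read as ATTGG where the match is on the other strand.
Lsm14b: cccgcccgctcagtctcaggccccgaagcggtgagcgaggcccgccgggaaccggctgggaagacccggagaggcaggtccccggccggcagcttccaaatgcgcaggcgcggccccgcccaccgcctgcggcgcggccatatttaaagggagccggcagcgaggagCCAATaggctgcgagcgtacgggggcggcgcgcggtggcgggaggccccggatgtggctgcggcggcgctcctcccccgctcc
Hnrnpc: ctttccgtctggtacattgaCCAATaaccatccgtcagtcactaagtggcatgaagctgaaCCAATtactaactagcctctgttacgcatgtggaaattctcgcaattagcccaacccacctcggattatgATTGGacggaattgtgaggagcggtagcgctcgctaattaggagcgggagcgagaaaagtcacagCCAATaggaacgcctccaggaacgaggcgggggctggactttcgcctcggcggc
Hnrnph1: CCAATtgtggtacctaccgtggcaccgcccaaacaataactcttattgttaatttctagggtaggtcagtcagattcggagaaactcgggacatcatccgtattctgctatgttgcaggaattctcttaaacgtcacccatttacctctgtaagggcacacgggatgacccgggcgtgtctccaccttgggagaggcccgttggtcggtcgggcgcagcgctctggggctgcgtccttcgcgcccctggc
Srsf1: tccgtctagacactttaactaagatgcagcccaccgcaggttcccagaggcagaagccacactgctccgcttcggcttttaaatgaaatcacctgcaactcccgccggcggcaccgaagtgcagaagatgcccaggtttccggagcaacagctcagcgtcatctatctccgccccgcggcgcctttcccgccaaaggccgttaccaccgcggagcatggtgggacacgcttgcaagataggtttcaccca

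The motif CCAAT was present once before Lsm14b and Hnrnph1, 4 times before Hnrnpc and not before Srsf1. Of the 66 member genes with a promoter window, 34 (51.5%) held CCAAT, against 34.5% of 27025 promoters of the same length. The FoxO motif GTAAACA, whose factors act downstream of PI3K and Akt, was in 2 of 66 (3.03%), against 3.09%. The E-box CACGTG was in 3.03% of the member windows, against 6.05% of all promoters. The ETS motif CCGGAAGT was in 9.09%, against 2.93%. The TATA box TATAAA was in 7.58%, against 13% of all promoters. None of the 5 contains another. These are matches of letters and not sites.

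Hnrnpc encodes a core hnRNP that binds uridine tracts of nascent transcripts. Its intensity was 643, 748 and 772 in the IGF1R mice, 439, 489 and 427 in the IGF1R-caPI3K mice and 497, 434 and 194 in the IGF1R-dnPI3K mice. Every IGF1R value was above every value of the other 2 groups, and the lowest value came from IGF1R-dnPI3K replicate 3. Hnrnpc fell by 1.05 ± 0.29 (log2, with its SE) under dominant negative PI3K, at a limma adjusted p of 0.0379. Without IGF1R-dnPI3K replicate 3 the difference was -0.63 (adjusted p = 0.0266), smaller by more than 1.5 times.

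Hnrnph1, whose product binds runs of guanosine, was at 2638, 2867 and 2697 in the IGF1R mice, 1868, 2261 and 1980 in the IGF1R-caPI3K mice and 2108, 1506 and 1305 in the IGF1R-dnPI3K mice. The IGF1R mice were again above all others. The fall with dominant negative PI3K was 0.77 ± 0.16 in log2 units (limma adjusted p = 0.0185). Without IGF1R-dnPI3K replicate 3 the difference was -0.62 (adjusted p = 0.0327).

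Hnrnpa2b1 encodes an hnRNP of splicing and RNA transport and was read by a pair of tested probe sets. The brighter one (93117_at) gave 4225, 4667 and 4489 in the IGF1R mice, 3194, 3385 and 3305 in the IGF1R-caPI3K mice and 3714, 2844 and 2114 in the IGF1R-dnPI3K mice. It fell by 0.66 ± 0.17 (SE, limma adjusted p = 0.0304), a call that 11 of 20 alternatives kept. Without IGF1R-dnPI3K replicate 3 it was at -0.455 (adjusted p = 0.0413). The dimmer one differed by -0.87 ± 0.29 and did not pass (adjusted p = 0.0657), and was at -0.49 (adjusted p = 0.124) without IGF1R-dnPI3K replicate 3. Both had IGF1R values that did not overlap with either other group.

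Hnrnpl, whose product binds CA-rich elements, gave 771, 722 and 987 in the IGF1R mice, 665, 593 and 624 in the IGF1R-caPI3K mice and 414, 504 and 609 in the IGF1R-dnPI3K mice. Here the lowest value came from IGF1R-dnPI3K replicate 1, not replicate 3. The fall was 0.70 ± 0.17 (SE, limma adjusted p = 0.0257), and the difference was -0.84 without replicate 3. The other 15 hnRNP probe sets tested did not pass. Of all 19, 15 had an estimate below 0 and 4 above, and the median was -0.43. Among those that did not pass, Hnrnpr differed by -0.70 ± 0.22 (adjusted p = 0.0566) and Hnrnpdl by -0.68 ± 0.23 (adjusted p = 0.0726), with the other Hnrnpdl probe set at -0.24 ± 0.18. Without IGF1R-dnPI3K replicate 3 these were at -0.42, -0.40 and -0.04. Hnrnpk was at -0.30 ± 0.19 (-0.14 without that replicate), Hnrnpa1 at -0.50 ± 0.25 and Hnrnpu, a nuclear scaffold protein, at -0.13 ± 0.19. Hnrnpab (0.21 ± 0.12), Hnrnpm (0.19 ± 0.15), Hnrnpd (0.18 ± 0.14) and Hnrnpll (0.17 ± 0.18) made up the 4 above 0.

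**Figure D1:**
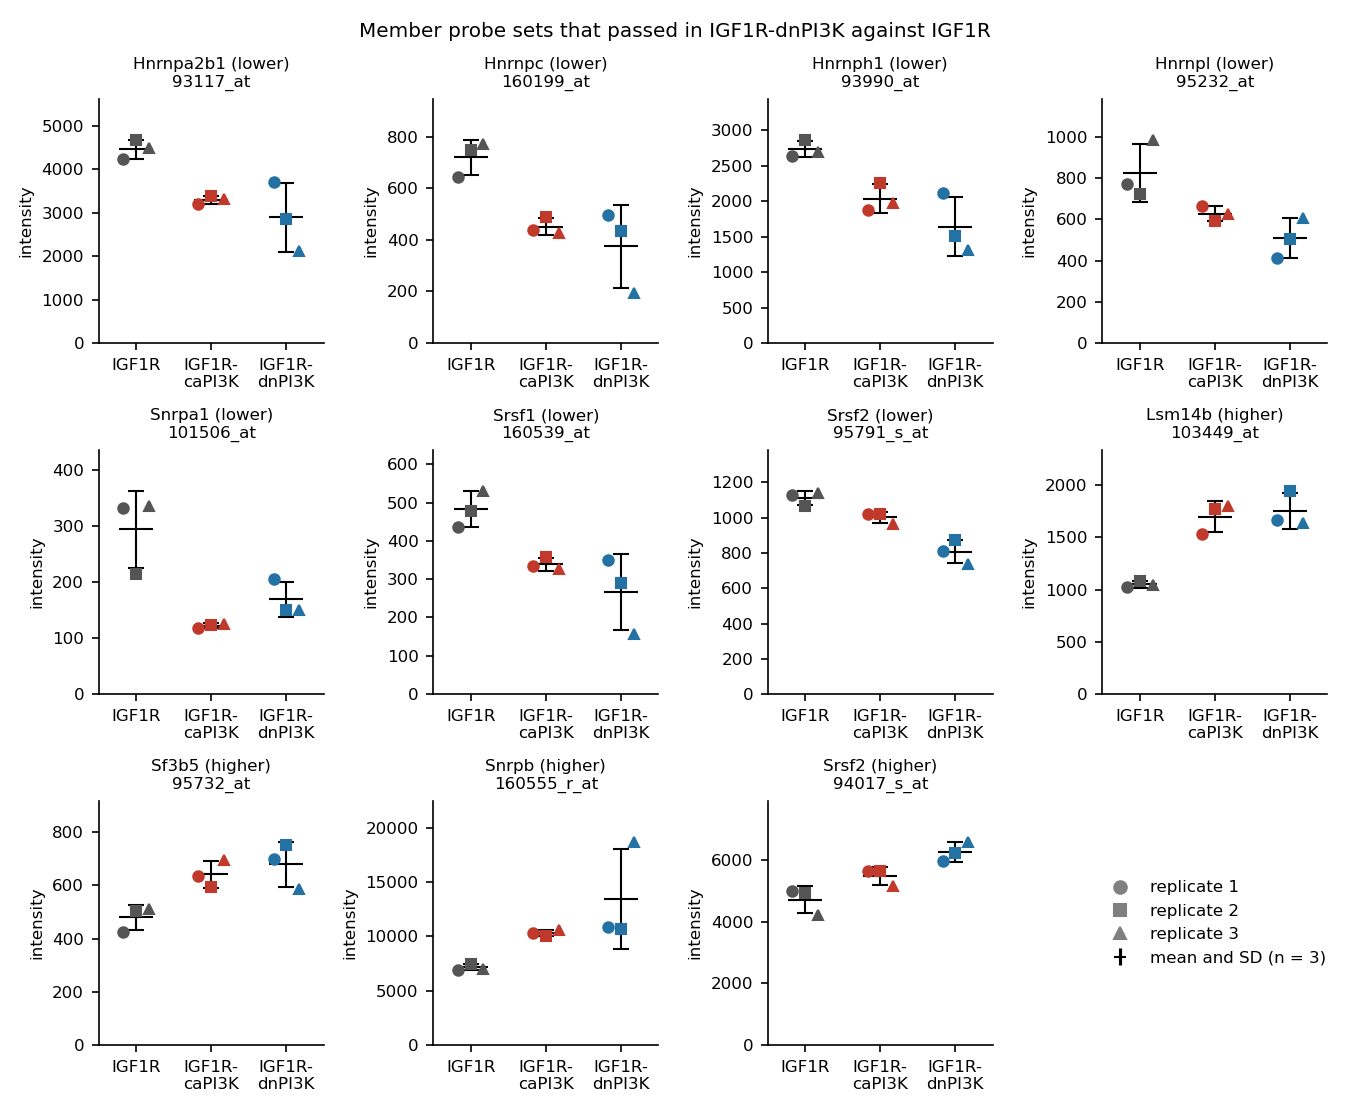
Deposited intensity (linear scale, arbitrary units, axes from 0) of the 11 member probe sets that passed between IGF1R-dnPI3K and IGF1R mice, with 1 symbol per mouse and the mean and SD of 3 mice. In all 11 panels the IGF1R values do not overlap with the IGF1R-dnPI3K values, and in most of the falling genes the lowest symbol is IGF1R-dnPI3K replicate 3 (194 for Hnrnpc, 157 for Srsf1).

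Srsf1 encodes the founding SR protein, which is needed for normal splicing in the growing heart. Its brightest probe set (160539_at) gave 437, 478 and 531 in the IGF1R mice, 333, 357 and 326 in the IGF1R-caPI3K mice and 349, 291 and 157 in the IGF1R-dnPI3K mice. IGF1R mice lay above both other groups without overlap. The fall with dominant negative PI3K was 0.93 ± 0.25 (SE, limma adjusted p = 0.0365), and the difference was -0.59 without IGF1R-dnPI3K replicate 3 (adjusted p = 0.0395). A second probe set of Srsf1 differed by -0.47 ± 0.25 and did not pass (adjusted p = 0.221), and was at -0.15 without that replicate.

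Srsf2 had a pair of probe sets that both passed, in opposite directions. One (95791_s_at) gave 1132, 1064 and 1140 in the IGF1R mice, 1022, 1019 and 965 in the IGF1R-caPI3K mice and 810, 873 and 739 in the IGF1R-dnPI3K mice, and fell by 0.46 ± 0.11 (SE, limma adjusted p = 0.0245). The other (94017_s_at) gave 5005, 4935 and 4217 in the IGF1R mice, 5634, 5654 and 5154 in the IGF1R-caPI3K mice and 5970, 6237 and 6601 in the IGF1R-dnPI3K mice, and rose by 0.41 ± 0.10 (adjusted p = 0.0288). Both sets of values were tight within groups and did not overlap between IGF1R and IGF1R-dnPI3K mice. The names of both mark possible shared targets, and which transcripts each reads was not tested, so Srsf2 has no single direction here. After quantile normalization the differences were -0.42 and 0.22.

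No other Srsf probe set passed with dominant negative PI3K. Of the 14 tested, 12 had an estimate below 0, and the median was -0.40, or -0.16 without IGF1R-dnPI3K replicate 3. The values were -0.96 ± 0.30 and -0.60 ± 0.29 for Srsf3, -0.67 ± 0.21 and -0.20 ± 0.28 for Srsf10 and -0.50 ± 0.19 (SE 0.195) for Srsf11. They were -0.34 ± 0.24 for Srsf6, -0.26 ± 0.17 for Srsf5, -0.19 ± 0.13 for Srsf9, and -0.25 ± 0.19 and 0.03 ± 0.17 for Srsf4. Without IGF1R-dnPI3K replicate 3 Srsf3 was at -0.685 and -0.43, Srsf10 at -0.43 and -0.01, Srsf11 at -0.24, Srsf5 at -0.11 and Srsf6 at -0.03. Srsf6 gave 1734, 1243 and 770 in the IGF1R-dnPI3K mice against 1501, 1741 and 1286 in the IGF1R mice.

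Of the genes of the U2 snRNP and the Sm ring, Snrpa1 fell, and Sf3b5 and Snrpb rose. Snrpa1, which encodes the A' protein of the U2 snRNP, gave 332, 214 and 334 in the IGF1R mice, 117, 123 and 125 in the IGF1R-caPI3K mice and 205, 150 and 151 in the IGF1R-dnPI3K mice. It fell by 0.79 ± 0.23 with dominant negative PI3K (SE, limma adjusted p = 0.046), a call that 6 of 19 alternative settings kept. Sf3b5, a small subunit of the SF3b complex of the U2 snRNP, gave 425, 504 and 510 in the IGF1R mice, 635, 592 and 695 in the IGF1R-caPI3K mice and 698, 753 and 586 in the IGF1R-dnPI3K mice. It rose by 0.50 ± 0.14 (adjusted p = 0.0422), a call that 8 of 20 alternatives kept. The other 9 Sf3 probe sets did not pass, with Sf3b1, the branch point binding subunit, at -0.36 ± 0.18 (-0.18 without IGF1R-dnPI3K replicate 3) and -0.01 ± 0.25 (SE 0.245) on its pair of probe sets.

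Snrpb encodes the Sm proteins B and B' of the ring that the spliceosomal RNAs carry. Its tested probe set (160555_r_at) gave 6935, 7471 and 7038 in the IGF1R mice, 10342, 10045 and 10608 in the IGF1R-caPI3K mice and 10851, 10706 and 18726 in the IGF1R-dnPI3K mice. The rise with dominant negative PI3K was 0.86 ± 0.18 (SE, limma adjusted p = 0.0187). It was 0.59 without replicate 3, whose value was far above the other 2, and 0.48 after quantile normalization. The other probe set named Snrpb stayed at 5.4 to 31.9 on all arrays and was not tested. Snrpc, Snrpd3, Snrpe, Snrpg and Snrpb2 did not pass, at 0.08 ± 0.12, -0.28 ± 0.27, -0.34 ± 0.13, -0.15 ± 0.12 (-0.155) and 0.37 ± 0.20 (SE 0.205). Without IGF1R-dnPI3K replicate 3 Snrpd3 was at -0.11 and Snrpe at -0.19. The probe set annotated to the pseudogene Snrp1c-ps2 had the highest estimate of all members, 1.05 ± 0.54 (1.055), but its IGF1R-caPI3K values alone ran from 235 to 1414, and it did not pass.

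Lsm14b passed under more alternatives than the other members did. Its product is an LSm14 protein of cytoplasmic RNA granules, outside the LSm ring of the U6 snRNP. The values were 1021, 1086 and 1039.8 in the IGF1R mice, 1530, 1768 and 1799 in the IGF1R-caPI3K mice and 1667, 1947 and 1641 in the IGF1R-dnPI3K mice. The IGF1R mice were close together and below all others. With dominant negative PI3K it rose by 0.74 ± 0.12 (SE, limma adjusted p = 0.00907), and 19 of 20 alternatives kept this call (0.66 to 0.91). The exception was the mouse number series as a block, at an adjusted p of 0.216. The 7 other LSm genes did not pass, among them Lsm14a, its paralog, at -0.45 ± 0.17 (adjusted p = 0.0944), and Lsm2, Lsm3, Lsm4, Lsm7 and Lsm8 of the ring of the U6 snRNP, at -0.27 to 0.13.

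No U2af or Prpf probe set passed with dominant negative PI3K, and neither did a Rbm probe set. The 3 U2af genes lay at 0.22 to 0.29, with U2af2, which binds the polypyrimidine tract, at 0.29 ± 0.11 (adjusted p = 0.106) and U2af1, which reads the AG of the 3' splice site, at 0.23 ± 0.13. Of 8 Prpf probe sets 6 had an estimate above 0. Prpf8, the scaffold of the tri-snRNP, was at 0.15 ± 0.13, Prpf6 at 0.34 ± 0.13 and Prpf38a at 0.60 ± 0.22. With arrays scaled to a common median U2af2, Prpf6 and Prpf38a passed as higher, and Hnrnpl, Snrpa1 and the lower Srsf2 probe set no longer passed. That scaling gave 7 members higher and 4 lower, while 14.8% of all probe sets passed, 10.5% higher and 4.22% lower. The kinase gene Prpf4b had the lowest estimate, -1.10 ± 0.46, which rested on a value of 15.0 on the array of IGF1R-dnPI3K replicate 3 against 131 and 120 on the other 2. Of the 18 Rbm probe sets, 12 lay below 0 with a median of -0.08 (-0.083), beside -0.09 over all probe sets tested. The widest were Rbm25 (-1.04 ± 0.44) and Rbm39 (-0.85 ± 0.33 on one probe set, 0.03 ± 0.21 on the other), and without IGF1R-dnPI3K replicate 3 they were at -0.48 and -0.35. Prpf4b was then at -0.45. Rbmx was at 0.10 ± 0.19 and -0.41 ± 0.20. Rbm20 and Rbm24, known for splicing in heart muscle, and Rbm3, Rbm5, Rbm10 and Snrpn were not analysed here.

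**Figure D2:**
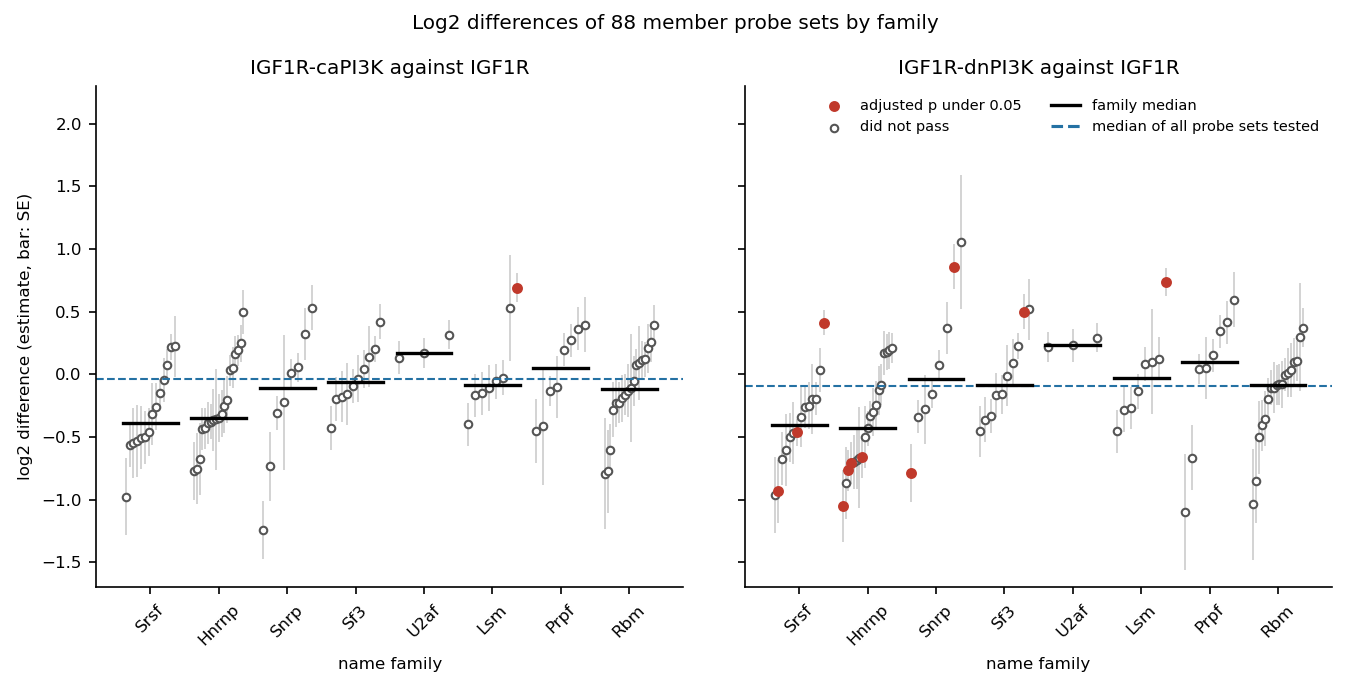
Log2 differences against IGF1R mice (y axis, estimate and SE) of all 88 member probe sets tested, by name family (x axis), for IGF1R-caPI3K on the left and IGF1R-dnPI3K on the right. Filled points passed, black lines are family medians and the dashed line is the median of all probe sets tested; the Srsf and Hnrnp medians lie at -0.39 and -0.35 on the left and -0.40 and -0.43 on the right, while the 3 U2af genes lie above 0.

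The number of members that passed with dominant negative PI3K depended on single arrays. It was 1 without any one of the 3 IGF1R arrays, and that member was Lsm14b each time. It was 7, 5 and 7 without IGF1R-caPI3K replicates 1, 2 and 3, which enter through the shared estimate of spread. It was 23 (5 higher, 18 lower) without IGF1R-dnPI3K replicate 1, 8 without replicate 2 and 10 without replicate 3. The share of all probe sets that passed moved as well. It was 2.63%, 2.54% and 0.924% without IGF1R replicates 1, 2 and 3, and 9.19%, 8.67% and 9.04% without IGF1R-caPI3K replicates 1, 2 and 3. Without IGF1R-dnPI3K replicate 1 it was 23.6% (9.43% higher and 14.1% lower), without replicate 2 it was 11.2% and without replicate 3 it was 8.26%. With only these 6 arrays in the fit, Lsm14b alone passed, and 1.67% of all probe sets did. The fits that leave out an IGF1R-dnPI3K array keep the other 2 as that group. By the mouse numbers in the titles, IGF1R-dnPI3K replicates 2 and 3 belong to a number series that no other mouse has. Without replicate 1, the IGF1R-dnPI3K group and that series therefore cannot be told apart.

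**Figure D3:**
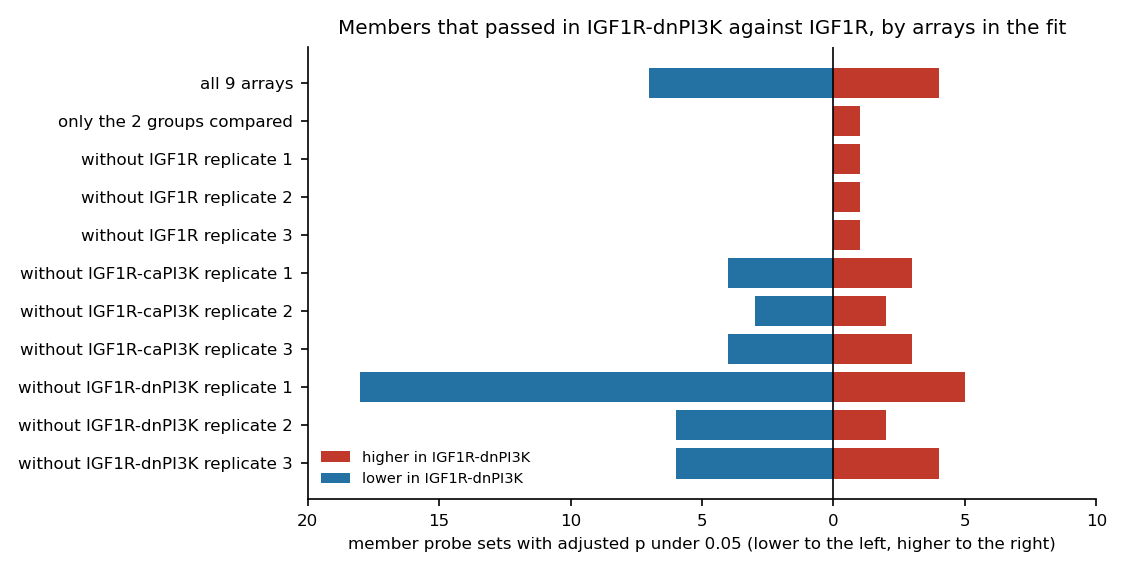
Number of member probe sets (x axis) that passed between IGF1R-dnPI3K and IGF1R mice, lower to the left and higher to the right, by the arrays in the fit (rows). All 9 arrays give 7 lower and 4 higher; leaving out an IGF1R array leaves 1, and leaving out IGF1R-dnPI3K replicate 1 gives 18 lower and 5 higher.

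With active PI3K, Lsm14b rose by 0.69 ± 0.11 (0.692, SE 0.115, limma adjusted p = 0.0482) and no other member passed. That is 1 of 88 members (1.14%), against 0.215% of all probe sets tested (0.152% higher and 0.0633% lower). At an unadjusted p under 0.05 there were 24 members (27.3%), against 18.4% of all probe sets. The Lsm14b call held in 8 of 20 alternatives, and no member passed when any one of the 6 arrays compared was left out. The members with the next lowest p were all lower and did not pass. Snrpa1 was at -1.24 ± 0.23 (adjusted p = 0.0535), Hnrnpdl at -0.77 ± 0.23 on one probe set and -0.31 ± 0.18 on the other, Srsf5 at -0.57 ± 0.17 (-0.565, adjusted p = 0.134) and Srsf3 at -0.98 ± 0.30 (-0.975, adjusted p = 0.136). Snrpa1 passed beside Lsm14b after quantile normalization (0.988% of all probe sets) and with a floor at the 40th percentile (0.848%). The IGF1R and IGF1R-caPI3K mice did not overlap for 13 members that were higher and 25 that were lower (43.2%), against 14.0%, 18.8% and 32.9% in both directions together of all probe sets.

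The count for active PI3K depended on which arrays entered the fit. With only the IGF1R and IGF1R-caPI3K arrays in the fit, 13 members passed, 3 higher and 10 lower, while the share of all probe sets went to 8.85% (3.93% higher and 4.93% lower). With array weights 14 members passed with active PI3K, against 9.84% of all probe sets, and 17 with dominant negative PI3K, against 18.4%. The lower members in the fit of the 2 groups were Hnrnpa2b1 (both probe sets), Hnrnpc, Hnrnpdl, Hnrnph1, Rbm39, Snrpa1, Srsf1, Srsf3 and Srsf11. The higher ones were Lsm14b, Snrpb and U2af2. Without IGF1R-dnPI3K replicate 3 in the fit of all groups, 10 members passed and 6.96% of all probe sets did. For Hnrnpdl the values behind this were 466, 500 and 486 in the IGF1R mice, 246, 270 and 345 in the IGF1R-caPI3K mice and 404, 332 and 206 in the IGF1R-dnPI3K mice. For Rbm39, whose product acts with U2AF, they were 1005, 1016 and 991, then 501, 682 and 593, then 849, 727 and 279 in the same order. U2af2 gave 3131, 3154 and 2835, then 3961, 3773 and 3624, then 3792, 3239 and 4180.

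By family, the median log2 difference with active PI3K was -0.39 for Srsf, -0.35 for Hnrnp, -0.11 for Snrp (-0.107) and -0.12 for Rbm. It was -0.065 for Sf3, -0.081 for Lsm, 0.05 for Prpf and 0.17 for U2af, against -0.04 (-0.035) over all probe sets tested. Both comparisons use the same 3 IGF1R mice, so the like signs in both are not independent. After quantile normalization the Srsf and Hnrnp medians were -0.33 and -0.27 with active PI3K and -0.32 and -0.29 (-0.295) with dominant negative PI3K. Under median scaling they were -0.29 and -0.25 with active PI3K and -0.23 and -0.26 with dominant negative PI3K. Without IGF1R-dnPI3K replicate 3 they were -0.16 and -0.30 with dominant negative PI3K, against -0.05 (-0.054) over all probe sets tested.

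No member passed between IGF1R-caPI3K and IGF1R-dnPI3K mice in limma. At an unadjusted p under 0.05 there were 4 of 88 (4.55%), against 15.4% of all probe sets, of which 1.24% passed after adjustment (0.734% higher and 0.506% lower). The nearest to passing were one probe set of Hnrnpul2 (0.37 ± 0.12 higher with active PI3K), the lower Srsf2 probe set (0.31 ± 0.11), Snrp1c-ps2 (-1.28 ± 0.54), Srsf6 (0.56 ± 0.24) and Hnrnph1 (0.34 ± 0.16). Their limma adjusted p ran from 0.199 to 0.357. Hnrnpul2 on that probe set (104609_at) gave 471, 478 and 460 with active and 386, 361 and 346 with dominant negative PI3K, without overlap, beside 469, 492 and 420 in the IGF1R mice. The other Hnrnpul2 probe set was at 0.055 ± 0.14 with overlap, and the other Srsf2 probe set was at -0.19 ± 0.10. The groups did not overlap for 8 members that were higher with active PI3K and 5 that were lower (14.8%), against 10.9%, 8.66% and 19.5% in both directions together of all probe sets. Lsm14b differed by -0.04 ± 0.11 (-0.043, SE 0.115) between these groups. Leaving out IGF1R-dnPI3K replicate 1 let Srsf6 and Hnrnph1 pass as higher with active PI3K, while 6.82% of all probe sets then passed (4.05% higher). Without replicate 3 in place of replicate 1, Srsf6 was at 0.25 (adjusted p = 0.565) and Hnrnph1 at 0.19 (adjusted p = 0.646). Without the filter on low signal a dim Prpf39 probe set passed, with values of 20.9 to 46.2 on all arrays, while 0.29% of all probe sets passed.

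Of the 15 genes read by a pair of tested probe sets, 6 had estimates of opposite sign with dominant negative PI3K, 3 with active PI3K and 5 between active and dominant negative PI3K. Srsf2 was the one where both probe sets passed. Srsf3, Hnrnpa2b1, Hnrnpdl, Srsf1, Srsf10 and Sf3b1 had both estimates below 0 in both comparisons with IGF1R mice.

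**Figure D4:**
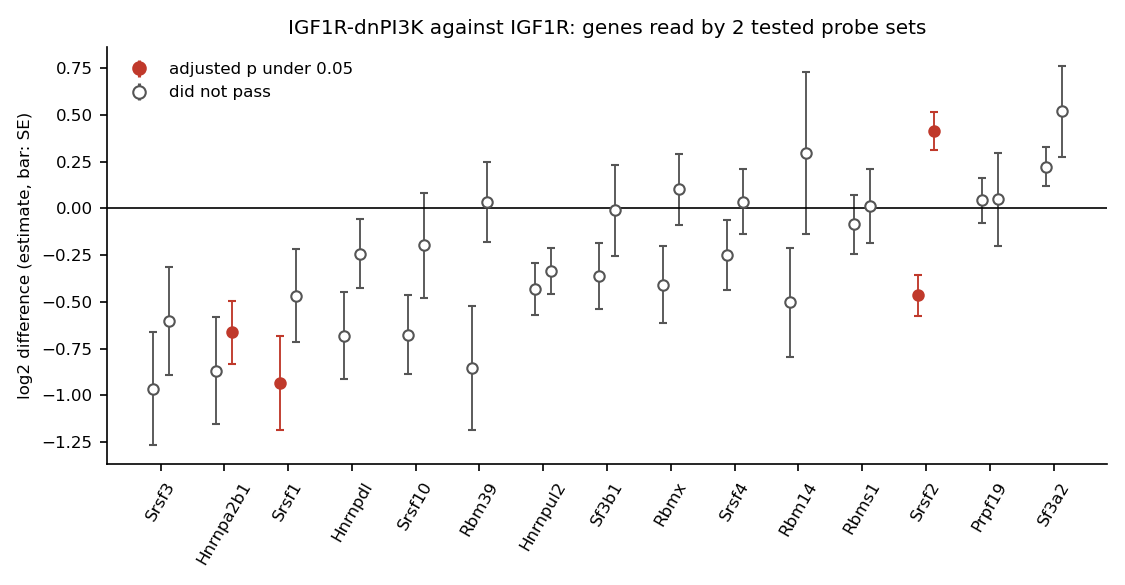
Log2 difference, IGF1R-dnPI3K minus IGF1R (y axis, estimate and SE), of the 15 member genes read by 2 tested probe sets (x axis, sorted by their mean). Filled points passed; the 2 probe sets of Srsf2 lie at -0.46 and 0.41, and those of Srsf3 and Hnrnpa2b1 lie below 0 together.

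Splicing genes outside the 8 name families were read from 3 lists of 135 entries, of which 95 genes had probe sets and 109 probe sets were tested. With dominant negative PI3K 20 of the 109 fell (18.3%) and 5 rose (4.59%), against 7.8% and 5.7% of all probe sets. The numbers that fell and rose moved with the scaling, and so did the shares over all probe sets. In each scaling the falls were a larger share of the 109 than of all probe sets. With arrays scaled to a common median 10 fell and 10 rose, against 4.22% and 10.5% of all probe sets, and after quantile normalization 15 fell and 8 rose, against 6.46% and 6.22% (12.7% in all). The count was 7, 5 and 2 without IGF1R replicates 1, 2 and 3, against 2.63%, 2.54% and 0.924% of all probe sets. It was 17 without any one IGF1R-caPI3K array, against 8.67% to 9.19%. Without IGF1R-dnPI3K replicates 1, 2 and 3 it was 34, 19 and 14, against 23.6%, 11.2% and 8.26%. With only the 6 arrays compared it was 4, against 1.67% of all probe sets. The lists' median was -0.12 against -0.09. Of 41 probe sets of splicing regulators 10 were lower and 2 higher. Their median was -0.31, but -0.16 after quantile normalization and -0.14 with median scaling, against -0.09, -0.01 (-0.005) and 0.08 (0.075) over all probe sets. Among other spliceosome components 8 of 50 fell and 3 rose, and among splicing factor kinases and snRNP assembly genes 2 of 18 fell. Whether the lists differ from each other was not tested.

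Fxr1, an RNA-binding protein of muscle, had the lowest p among these genes, with a fall from 476 ± 51.7 in IGF1R to 171 ± 44.0 in IGF1R-dnPI3K mice (SD, n = 3 each, log2 difference -1.50 ± 0.21, limma adjusted p = 0.00827). Its other probe set was at -0.28 ± 0.34. Raly, an hnRNP of another name, fell by 1.26 ± 0.25. The quaking gene Qk fell by 1.10 ± 0.22 on one probe set, with the other at -0.41 ± 0.16, and the kinase gene Dyrk1a fell by 0.855 ± 0.19 on one, with the other at -0.01 ± 0.25. Both probe sets of the RNA helicase gene Ddx17 fell, by 1.18 ± 0.21 (SE 0.215) and 0.55 ± 0.11. Mbnl1, the muscleblind regulator of the postnatal isoform switch, fell by 0.45 ± 0.12 (adjusted p = 0.0371). The rises were those of the tri-snRNP component Txnl4a (1.10 ± 0.17, adjusted p = 0.00907), Bud31 (0.62 ± 0.12, its other probe set at -0.42 ± 0.19), the SR-related Srrm1 (0.48 ± 0.10), Rbpms (0.45 ± 0.11, its other probe set at 0.22 ± 0.10) and the cold-inducible Cirbp (1.12 ± 0.33, adjusted p = 0.0485). Celf1 (0.02 ± 0.59), Rbfox2 (-0.12 ± 0.64 and 1.18 ± 0.66), Srpk1 (-0.01 ± 0.17, -0.015) and Clk1 (0.34 ± 0.12), the latter pair kinases of SR proteins, did not pass. With active PI3K none of the 109 passed in limma. At an unadjusted p under 0.05 there were 22 (20.2%), against 18.4% of all probe sets. With only the 2 groups in the fit 15 passed, against 8.85%. Between active and dominant negative PI3K none passed, and 10 (9.17%) had an unadjusted p under 0.05, against 15.4%. Leaving out IGF1R-dnPI3K replicate 1 let 6 of the 109 pass there, against 6.82% of all probe sets.

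Markers of the cell types of the ventricle were read beside these results. Cardiomyocyte markers summed to 155100 to 167000 in the IGF1R, 166100 to 173300 in the IGF1R-caPI3K and 179200 to 214000 in the IGF1R-dnPI3K mice. Of 8 tested probe sets 3 were higher with dominant negative PI3K, but this direction turned after quantile normalization. It did not turn with arrays scaled to a common median, where the median of the 8 was 0.46. Myh6, Myl3 and Myl2 were there at 0.56, 0.58 and 0.64. The median of the 8 was 0.29 as deposited and -0.16 after quantile normalization, where Myh6 went from 0.39 to -0.07, Myl3 from 0.41 to -0.04 and Myl2 from 0.47 to 0.01. Fibroblast and matrix markers summed to 33420 to 36970, 36100 to 40480 and 23800 to 28870 in the same order, and 7 of 13 were lower with dominant negative PI3K. Macrophage markers summed to 5818 to 6648, 6522 to 6681 and 3567 to 5421, with 3 of 8 lower, and endothelial markers had 2 of 11 lower. Smooth muscle (4 tested), lymphocyte (3) and red blood cell markers (4) had none that passed in that comparison, and the T cell genes Cd3e, Cd3g and Cd8a stayed at 5.3 to 56.3 on all arrays, within the range of Y-linked probe sets in these female mice (up to 63.9). With active PI3K 1 of 3 lymphocyte probe sets was lower (Cd79a, -1.83) and no other marker passed. The other lymphocyte probe sets tested lay above 0, Cd4 at 0.92 and Ms4a1 at 1.10. Between active and dominant negative PI3K 4 of 13 fibroblast and matrix probe sets were higher with active PI3K, and the lymphocyte marker Cd79a was lower (-1.37, limma adjusted p = 0.0173). There Cd4 was at 0.08 and Ms4a1 at -0.58, and neither passed. The part of these cell types in the results on splicing genes was not tested.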

How the data were processed

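The authors deposited a linear intensity for each probe set in 9 mice, 3 per group, grouped here by sample title. All arrays share nearly the same 2% trimmed mean (500.3 to 500.4), so the deposited intensity was taken as already scaled. No source used here names the algorithm. The p-values set each group difference against a spread between mice that was pooled over all groups in the fit. The median SD was widest with dominant negative PI3K. The p-values of a comparison therefore do not rest on the spread of the compared mice alone. They also cannot separate group from the control ratios or the mouse number series where these moved together. Symbols came from the platform annotation: of the probe sets that are not controls, 10833 had 1 symbol, 396 several and 1193 none. Another 11 probe sets that name a family gene among several were left out.

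The 66 control probe sets were left out, log2 was taken after setting lower values to 32.4 (20th percentile of the positive values), and a probe set was tested if it passed its array's 40th percentile in 3 or more mice (7898 did). All 9 arrays entered one limma 3.58.1 model (R 4.3.3) with a mean-variance trend and Benjamini-Hochberg adjustment over all probe sets tested. The model was also run on simulated data, in which all 3 groups had the same spread. That run therefore does not cover the wider spread of the IGF1R-dnPI3K group. Signals are linear and differences are log2 estimates with SE.

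Members, lists and tests were chosen with earlier results of these data known. Named were up to 12 members in each direction with the lowest p among those that passed, the 5 lowest p where fewer passed, every Srsf gene and a fixed set of genes. Members that passed only in an alternative fit were named after their values were seen. Alternatives were 2 scalings, 2 treatments of low values, 2 filters, 2 variance models, fits with only the groups compared, the mouse number series as a block, probe sets without possible shared targets, and each array left out. Promoter windows came from RefSeq (GRCm38.p6), and 66 of 76 member genes had one.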

Additional observations from a re-analysis of the deposited data

How the results depend on the processing

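No paired analysis was possible because the titles give each mouse a number of its own; the first digits of that number were used as a block, under which only replicate 1 of the IGF1R-dnPI3K group informs that comparison. Member probe sets that passed between IGF1R-caPI3K and IGF1R were 1 in the fit reported. They were 2 after quantile normalization (0.988% of all probe sets) and with a floor at the 40th percentile (0.848%). They were 14 with array weights (9.84% of all probe sets) and 13 with only the 2 groups compared (8.85%). They were 0 with median scaling, without a floor, without a filter, without the trend, with the block and without probe sets of possible shared targets, and 0 to 10 with 1 array left out. Between IGF1R-dnPI3K and IGF1R 11 passed, against 5 without a filter, 6 without the trend, 17 with array weights, 1 with only the 2 groups, 0 with the block and 1 to 23 with 1 array left out. Between IGF1R-caPI3K and IGF1R-dnPI3K 0 passed, against 1 without a filter and 0 to 2 with 1 array left out. For the other splicing genes the first comparison gave 0, against 3 after quantile normalization and with the higher floor, 4 with a filter at the 60th percentile, 15 with array weights or only the 2 groups, and 0 to 12 with 1 array left out. The second gave 25, against 8 without a filter, 4 with only the 2 groups, 0 with the block and 2 to 34 with 1 array left out. The third gave 0, against 1 with array weights and 0 to 6 with 1 array left out. In the results on single members that passed, no alternative reversed a direction. Between IGF1R-dnPI3K and IGF1R the share of all probe sets moved as well. It was 13.5% in the fit reported, 18.4% with array weights and 1.67% with only the 2 groups. With 1 array left out it was 0.924% to 23.6%. Where no such share is given, a count cannot be set against the array as a whole. The cause of these shifts was not tested, beyond fewer arrays in some fits. The number of arrays limits the precision.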
